A study of Mus musculus with 2 samples.

Results

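Mature B cells were taken from single-cell libraries of live CD45+ cells, the white blood cells that had entered tumours of C57BL6\J mice. The cells were chosen by their own counts, so these genes are no finding. A barcode counted as a mature B cell when it had 3 or more unique molecular identifiers (UMIs, counted RNA molecules) of Cd79a, at least 1 of Ms4a1, at most 3 of Vpreb3 and 0 of Rag1. It also had at most 1 UMI over Cd3e, Cd3d and Cd3g together and at most 1 over Csf1r and Csf3r together. The rule found 113 mature B cells among 9255 barcodes with 200 or more genes. Of these, 48 came from the E2 library and 65 from the placebo library. Both groups were ovariectomised: one then received E2, the usual abbreviation of estradiol, and the other received placebo. Each group held 1 library, so the comparison has no replicate check, no test was run, and every difference is one between these 2 libraries. The labels state neither the kind of tumour nor how much E2 was given and for how long, nor the age or number of the mice.

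Mature B cells carry a membrane antibody as their antigen receptor. Its signal passes through CD79A and CD79B, and CD20, the product of Ms4a1, sits beside it in the membrane. Naive follicular B cells make IgM and IgD from the same primary transcript, gain the IgE receptor CD23 (Fcer2a) as they mature, and present antigen on MHC class II. VPREB3 and CD93 belong to earlier stages, before a B cell has settled in the follicle. Estrogen is known to restrain the formation of B cells in mouse bone marrow and to alter the selection of mature ones.

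The E2 library held 5765 barcodes of 200 or more genes and the placebo library 3490, with medians of 8108 and 5158.5 UMIs per barcode. The libraries held 52628133 and 24545595 UMIs before this filter. The mature B cells themselves had like depths: a median of 3199 UMIs in E2, between 1419 and 19590, and a median of 3245 in placebo, between 2217 and 5807. Their summed UMIs came to 188499 in E2 and 230239 in placebo. The libraries shared 95 barcode sequences, and 0 of those were mature B cells. The 37 mitochondrially encoded genes held 0 UMIs, so no mitochondrial share was at hand to judge cell quality.

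The B lineage of the members held against genes that the rule did not use. Ighd, the heavy chain of IgD, had a UMI in 44 of 48 E2 cells and in 64 of 65 placebo cells, with 0 to 8 UMIs a cell and a median of 3.5 in E2 and 0 to 13 with a median of 4 in placebo. Its level in CPM, the summed UMIs of the cells scaled to a common total, was 907 and 1329, against 3.59 and 4.10 in the T cells of the same libraries. Fcer2a had a UMI in 24 of 48 E2 cells and 36 of 65 placebo cells, and in 0 of 926 E2 and 0 of 1072 placebo T cells. Pax5, the factor that commits cells to the B lineage, had a UMI in 40 of 48 E2 cells and 54 of 65 placebo cells, and Ebf1, its partner factor, in 47 and 65 cells. Of 67 placebo B cells with over 3 Vpreb3 UMIs, 47 had a UMI of Ighd, 60 of Pax5, 66 of Ebf1 and 6 of Fcer2a. Ighd, Pax5 and Ebf1 were thus not particular to the mature cells. Nor was Fcer2a in E2, where 3 of 6 B cells with over 3 Vpreb3 UMIs had a UMI of it. Cells were thinned to 2000 UMIs to compare shares at 1 depth, which left out 1 E2 cell. Ighd was then found in 78.7% of E2 cells and 81.5% of placebo cells, and Fcer2a in 29.8% and 43.1%, against 1.22% and 0.853% of T cells for Ighd and 0% for Fcer2a. The T cells had medians of 4646 and 4799 UMIs. The exact 95% intervals of both pairs overlapped (64.3 to 89.3% and 70.0 to 90.1% for Ighd, 17.3 to 44.9% and 30.8 to 56.0% for Fcer2a). These intervals, like all those below, cover counting error only.

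A pair of E2 barcodes stood apart. They held 15281 and 19590 UMIs, the next highest E2 cell held 6088, and together they carried 18.5% of all E2 mature B cell UMIs. Both had B cell genes, with 9 and 14 UMIs of Cd79a, 11 and 18 of Ighm and 6 and 15 of Ebf1. Both also had 324 and 505 UMIs of Cst3, the protease inhibitor cystatin C, which dendritic cells make in quantity. They carried the type 1 dendritic cell receptors as well, with 3 and 8 UMIs of Xcr1 and 6 and 7 of Clec9a. Over the other 46 E2 cells, Xcr1, Clec9a and Zbtb46 were at 0 UMIs and no cell had more than 3 of Cst3. The doublet caller Scrublet ranked the pair at 901 and 2133 of the E2 barcodes, outside the 266 with the highest scores. Their nature was not tested.

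**Figure D1:**
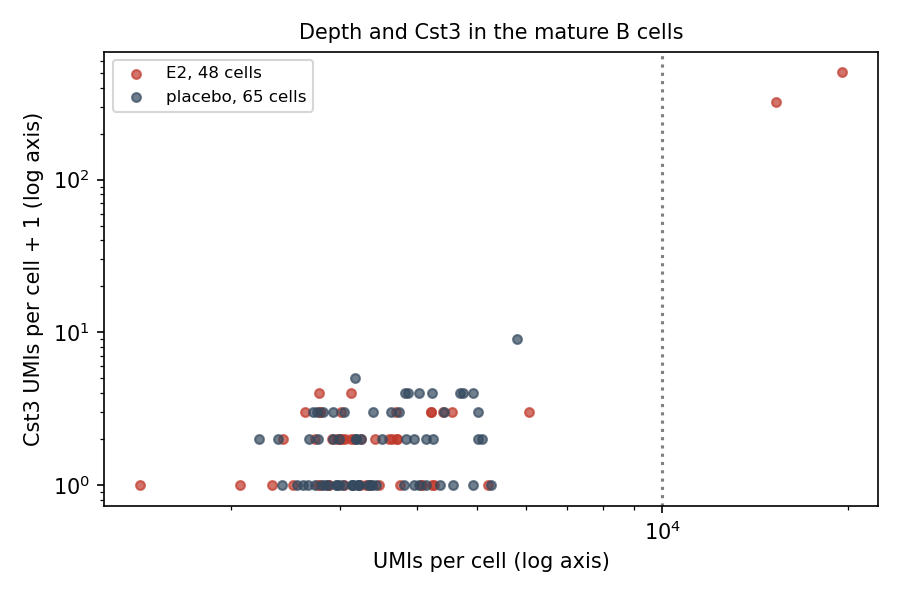
Each point is a mature B cell, with its UMIs on the x axis (log axis) and its Cst3 UMIs plus 1 on the y axis (log axis), for E2 (48 cells) and placebo (65 cells). The dotted line marks 10000 UMIs, and a pair of E2 cells with 324 and 505 Cst3 UMIs lies to its right, apart from the others.

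Most genes that led over all 48 E2 cells rested on that pair. Of the 12 highest, Ckb, Alox5ap, Cst3, Naaa, Plbd1, Ptms, Lyz2, Atox1, Id2, Ly6a, Nr4a2 and Nr4a3, 11 had over 50% of their E2 UMIs in those barcodes. Cst3 had 870 UMIs in E2 and 69 in placebo, and 829 of the 870 came from the pair. Without it, the log2 ratio of Cst3 was -0.16 instead of 3.90, and that of Nr4a2, an orphan nuclear receptor induced by stimulation, was -1.17 instead of 1.67. Ckb and Alox5ap had 0 UMIs in placebo and 1 and 3 in the other E2 cells. Gene values below are therefore for the other 46 E2 cells and the 65 placebo cells, with the value over all 48 beside them where it differs in direction or call.

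Mature B cells made up a smaller share of the E2 library. They were 48 of 5765 barcodes in E2, or 0.833% (exact interval 0.615 to 1.10%), and 65 of 3490 in placebo, or 1.86% (1.44 to 2.37%). The share was 2.24-fold lower in E2 (interval 1.52 to 3.32). T cells, taken as barcodes with 3 or more Cd3 UMIs and 0 of Cd79a, were also a smaller share, 16.1% in E2 and 30.7% in placebo. Of mature B and T cells together, mature B cells were 4.93% in E2 (3.66 to 6.48%) and 5.72% in placebo (4.44 to 7.23%), intervals that overlap. Shares of a sorted library depend on the other cells in it, and fewer B cells cannot be told apart from more of other cells.

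B cells with over 3 Vpreb3 UMIs, taken by the same rule with no limit on Rag1, differed more. They were 6 barcodes in E2, or 0.104% (0.0382 to 0.226%), and 67 in placebo, or 1.92% (1.49 to 2.43%), an 18.4-fold lower share (8.04 to 52.0). Mature B cells therefore made up 48 of 54 of these B cells in E2, or 88.9% (77.4 to 95.8%), and 65 of 132 in placebo, or 49.2% (40.4 to 58.1%). The share of mature cells with 0 Vpreb3 UMIs was close, 39.6% in E2 (25.8 to 54.7%) and 38.5% in placebo (26.7 to 51.4%). Mature cells with 1 to 3, without the pair of deep barcodes, differed in Cd24a, a gene of immature B cells. It lay there at 163 CPM in E2 and 487 CPM in placebo. Cd93 had 0 and 7 UMIs, with exact Poisson intervals that overlap (0 to 37.6 CPM in E2 and 18.8 to 96.2 CPM in placebo). The thresholds themselves cut few cells at the Cd79a end, with 0 E2 and 2 placebo members at 3 UMIs and 0 barcodes in either library that met all else with 2. At the Vpreb3 end, 8 E2 and 12 placebo members had 3 UMIs, and 1 E2 and 7 placebo barcodes that met all else had 4. At the Ms4a1 end, 16 E2 and 7 placebo members had 1 UMI, and 2 E2 and 9 placebo barcodes that met all else had 0.

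**Figure D2:**
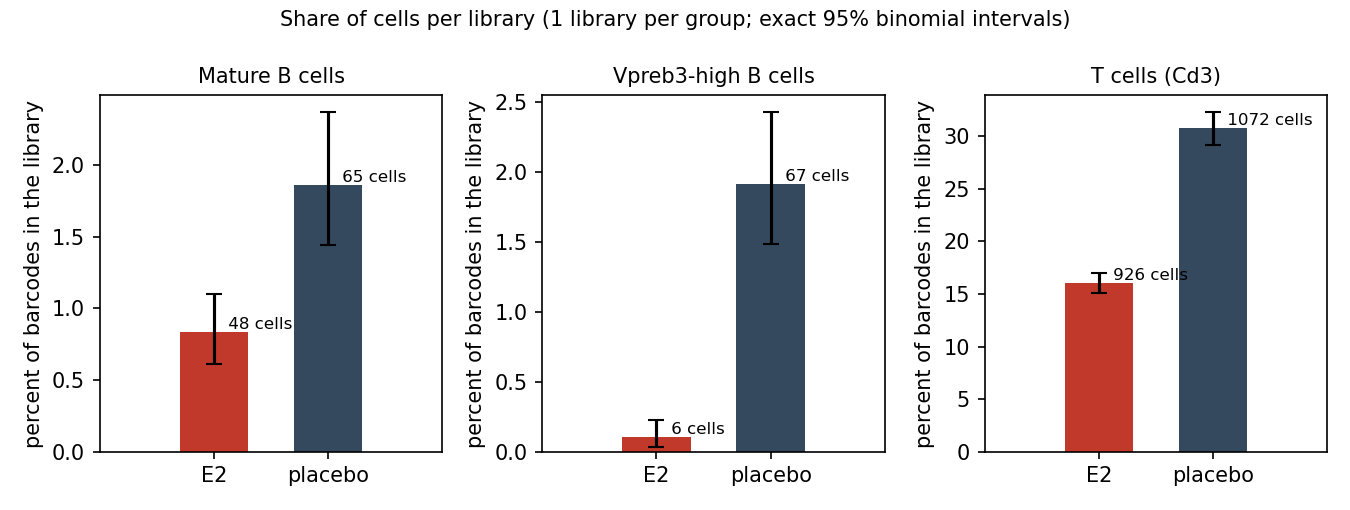
Bars give the percent of each library's barcodes that are mature B cells, Vpreb3-high B cells and T cells, E2 left and placebo right, with exact 95% binomial intervals and 1 library per group. Mature B cells stood at 0.833% in E2 and 1.86% in placebo, and Vpreb3-high B cells at 0.104% and 1.92%; the y axes differ.

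The receptor class was that of cells that had not switched. With at least 3 heavy chain UMIs, Ighm was the leading heavy chain gene in 42 of 47 E2 cells, or 89.4% (76.9 to 96.5%), and in 57 of 65 placebo cells, or 87.7% (77.2 to 94.5%). Ighd led in the other 5 E2 and 8 placebo cells. A switched class led in 0 of 47 E2 and 0 of 65 placebo cells, which allows shares of up to 7.55% and 5.52%. Among switched genes, Ighg1, Ighg2b, Ighg2c and Ighe had 0 UMIs, which allows a UMI in up to 7.40% of the 48 E2 cells and 5.52% of the 65 placebo cells. Ighg3 had 1 in E2, and Igha had 4 UMIs in 3 placebo cells. Igha also lay at 4.08 and 6.94 CPM in E2 and placebo T cells, which do not transcribe it, and its level in mature B cells was not told apart from free RNA. Igkc, the kappa light chain, led over lambda in 45 of 48 E2 cells, or 93.8% (82.8 to 98.7%), and in 58 of 65 placebo cells, or 89.2% (79.1 to 95.6%). Lambda led in 3 E2 and 6 placebo cells. The 3 lambda constant genes are near-identical copies, so reads may be split between them.

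The balance of Ighm and Ighd differed between strata of Vpreb3 UMIs, and less so in E2 than in placebo. The percent of Ighm among the Ighm and Ighd UMIs of a cell ran from 40 to 100 with a median of 67.7 over the 46 E2 cells, and from 33.3 to 100 with a median of 75 over the 65 placebo cells. In cells with 0 Vpreb3 UMIs its median was 64.6% in E2 and 61.5% in placebo, in cells with 1 to 3 it was 70.1% and 83.7%, and in Vpreb3-high cells it was 87.0% and 96.2%. The order was the same in both libraries, lowest where Vpreb3 was 0. Ranges of the 0 and 1 to 3 strata overlapped, at 40 to 100% and 42.9 to 100% in E2, and 33.3 to 95% and 35.7 to 100% in placebo. Ighd itself was at 1119, 1039 and 1043 CPM in E2 from 0 Vpreb3 UMIs upward, with intervals that overlap, and at 1741, 1108 and 418 CPM in placebo. Fcer2a was at 435, 234 and 36.5 CPM in placebo over the same strata. In E2 it was at 361, 295 and 298 CPM, where the last stratum holds 6 cells. Cd93, a receptor of immature B cells, had 0 UMIs in all 3 E2 strata, and 0, 46.7 and 123 CPM in placebo. Since Vpreb3 belongs to the rule and to the same cells, these strata describe the cells and are no test.

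H2-Aa, a chain of MHC class II, was lowest in the Vpreb3-high cells of both libraries. It lay at 3916, 3859 and 1937 CPM in E2 and at 3607, 2776 and 1002 CPM in placebo, from 0 Vpreb3 UMIs upward. Spib, an ETS-family factor that B cells need for normal receptor signalling, lay at 361, 727 and 1288 CPM in placebo, lowest where Vpreb3 was 0. In E2 it lay at 307, 102 and 993 CPM, so the levels at 0 Vpreb3 UMIs overlapped (exact Poisson intervals 179 to 491 CPM in E2 and 242 to 518 CPM in placebo) and those at 1 to 3 did not (48.8 to 187 CPM in E2 and 597 to 877 CPM in placebo). Ccnd2, the cyclin D2 that drives B cells into division after receptor signals, lay at 235, 61.1 and 99.3 CPM in E2 and 236, 581 and 707 CPM in placebo. Cd24a, a surface protein that is high on immature B cells, lay at 253, 163 and 844 CPM in E2 and 199, 487 and 850 CPM in placebo. For Spib, Ccnd2 and Cd24a the intervals of E2 and placebo overlapped at 0 Vpreb3 UMIs, and did not at 1 to 3, which holds 28 E2 and 40 placebo cells.

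**Figure D3:**
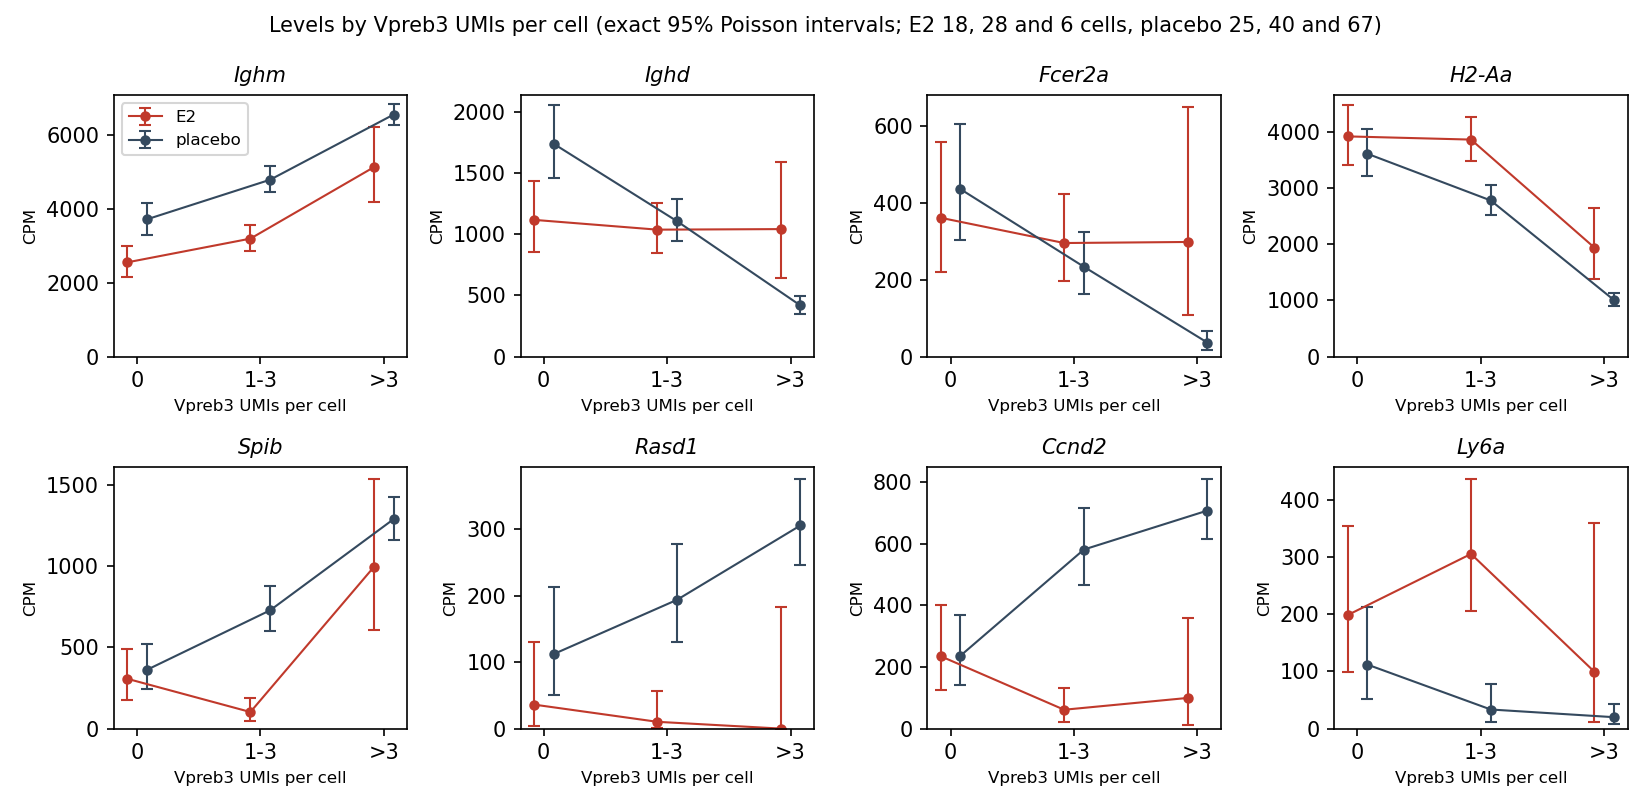
Level in CPM (y axes start at 0 and differ) of 8 genes in B cells with 0, 1 to 3 and over 3 Vpreb3 UMIs, for E2 (18, 28 and 6 cells) and placebo (25, 40 and 67 cells), with exact 95% Poisson intervals. Intervals of Spib and Ccnd2 overlap between libraries at 0 Vpreb3 UMIs and lie lower in E2 at 1 to 3, while Ly6a is higher in E2 at 1 to 3, with 305 CPM in E2 and 33.4 CPM in placebo.

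Among genes with at least 30 UMIs over both libraries together, more were lower than higher in E2 mature B cells. Levels are CPM of the UMIs summed over a library's mature B cells, and a log2 ratio is that of (CPM + 10) in E2 over placebo, which understates low genes. Over all 48 E2 cells, 139 of 2273 genes with at least 30 UMIs (6.12%) were at least 1.5-fold higher and 405 (17.8%) at least 1.5-fold lower, with a median log2 ratio of -0.14. Without the pair of deep barcodes, 110 of 2082 genes (5.28%) were higher and 321 (15.4%) lower, with a median of -0.11. Scaled by the median of ratios instead, 182 and 336 genes passed over all 48 cells, so 35.1% of the calls were higher, against 25.6% with CPM; without the pair the same scaling left 110 and 321. With no minimum of UMIs, 2227 of 11463 genes were higher and 2497 lower over all 48 cells, so 47.1% of the calls were higher. Placebo held more of the summed UMIs, so a gene found mainly there passes the minimum at a lower CPM. The part of the minimum in the split was not tested. Ribosomal protein genes took 26.7% of the UMIs in E2 cells and 21.5% in placebo cells, and 21.2% and 19.5% in T cells. Their part in these counts was not tested.

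Ly6a had the highest ratio. It encodes the surface protein SCA-1, an interferon-inducible marker of stem and activated lymphoid cells (GRCm38 chr15:74994877-74998031, minus strand). It had 41 UMIs in 20 of 46 E2 cells, with at most 6 in a cell, and 14 UMIs in 9 of 65 placebo cells, with at most 3. The level was 267 CPM in E2 and 60.8 CPM in placebo, 4.39-fold higher (2.34 to 8.72; log2 1.97, and 1.72 over all 48 cells). Most cells of either library had 0, so the groups overlap cell by cell. At 2000 UMIs per cell, 31.1% of 45 E2 cells (18.2 to 46.6%) and 10.8% of placebo cells (4.44 to 20.9%) had a UMI. T cells express Ly6a as well, and lay at 263 CPM in E2 and 339 CPM in placebo, with a UMI in 31.5% and 40.5% of cells at the same 2000 UMIs. Among B cells with 0 Vpreb3 UMIs the log2 ratio of Ly6a was 0.77, from 11 UMIs in E2 and 9 in placebo. The exact Poisson intervals overlapped there, at 99.1 to 355 CPM in E2 and 51.2 to 213 CPM in placebo.

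Apoe came next, the lipid-carrying apolipoprotein that macrophages secrete (chr7:19696109-19699188, minus strand). It had 46 UMIs in 21 of 46 E2 cells and 19 in 8 of 65 placebo cells, at 299 and 82.5 CPM, 3.63-fold higher (2.08 to 6.56). It was also higher in E2 T cells, at 802 CPM against 344 CPM in placebo T cells, and in E2 myeloid cells, at 9442 CPM against 5206 CPM. The list of 13 monocyte and macrophage markers, of which Apoe is one, held 72 UMIs in E2 and 29 in placebo, and 26 and 10 without Apoe, with at most 7 and 1 of these in a cell. Csf1r, Adgre1, Fcgr1 and Cd14 were at 0 in E2, and those at 0 in placebo included C1qa, C1qb, C1qc, Adgre1, Ms4a7 and Cd14. The rule limits Csf1r, so its low count is no finding. The part of free RNA in the Apoe values was not tested.

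The other 10 highest genes had log2 ratios between 1.06 and 1.38 and few UMIs. Mndal, an interferon-inducible nuclear protein of the HIN-200 family, had 53 UMIs in E2 and 37 in placebo, at 345 and 161 CPM (2.15-fold higher, 1.38 to 3.36), and its log2 ratio in T cells was 0.67. Rbm6, an RNA-binding protein, had 25 and 13 UMIs, at 163 and 56.5 CPM (2.88-fold higher, 1.42 to 6.13). Gch1, the first enzyme of tetrahydrobiopterin synthesis, had 22 and 14 UMIs (2.36-fold higher, 1.15 to 4.98). Tpd52, Fkbp3, Dbnl, Blvrb, Fxyd5, Ube2m and Fam69a made up the rest, with 13 to 20 placebo UMIs each.

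The 12 lowest genes included a factor and a cyclin of B cells. Spib (chr7:44525993-44532071, minus strand) had 27 UMIs in 18 of 46 E2 cells, with at most 4 in a cell, and 138 UMIs in 46 of 65 placebo cells, with at most 17. It lay at 176 CPM in E2 and 599 CPM in placebo, 3.41-fold lower (2.25 to 5.36; log2 -1.71, and -1.89 over all 48 cells). At 2000 UMIs per cell, 26.7% of 45 E2 cells (14.6 to 41.9%) and 52.3% of placebo cells (39.5 to 64.9%) had a UMI, against 0.221% and 0.190% of T cells. Ccnd2 (chr6:127125162-127152193, minus strand) had 19 UMIs in 7 E2 cells and 106 in 26 placebo cells, at 124 and 460 CPM, 3.72-fold lower (2.27 to 6.43). At 0 Vpreb3 UMIs the log2 ratios of Spib and Ccnd2 were -0.23 and -0.01. T cells differed less in Ccnd2, with 530 CPM in E2 and 733 CPM in placebo.

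Rasd1, a Ras-like GTPase first known as a target of glucocorticoids (chr11:59963181-59964944, minus strand), had 3 UMIs in 2 E2 cells and 38 in 17 placebo cells. The levels were 19.5 CPM in E2 and 165 CPM in placebo, 8.45-fold lower with a wide interval (2.68 to 42.8). It was higher in Vpreb3-high placebo cells, at 305 CPM, and low in T cells, at 3.75 CPM in E2 and 5.68 CPM in placebo. Among cells with 0 Vpreb3 UMIs it had 2 UMIs in E2 and 9 in placebo, a log2 ratio of -1.40. Dennd1b, an exchange factor for a RAB GTPase of vesicle traffic, had 5 UMIs in E2 and 41 in placebo (5.47-fold lower, 2.16 to 17.7). Pds5a, a regulator of the cohesin ring, had 7 and 50 UMIs (4.77-fold lower, 2.15 to 12.5), found in 7 E2 cells and 37 placebo cells. In cells with 0 Vpreb3 UMIs, Dennd1b had 2 UMIs in E2 and 14 in placebo, and Pds5a 3 and 17.

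Hbp1, an HMG-box repressor, Cpsf2, of the complex that cuts pre-mRNA ends, Rbm27, an RNA-binding protein, Ogdh, of the citric acid cycle, and Fgd2, an exchange factor for CDC42, had log2 ratios between -1.80 and -1.60. Srpk3, a kinase of splicing factors, had 4 UMIs in E2 and 29 in placebo, but its log2 ratio was 0.10 in cells with 0 Vpreb3 UMIs. Dqx1, a helicase-like protein, had 0 UMIs in E2 and 33 in placebo, of which 32 came from 1 cell. Over all 48 cells, 9 of the 12 lowest genes were the same.

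**Figure D4:**
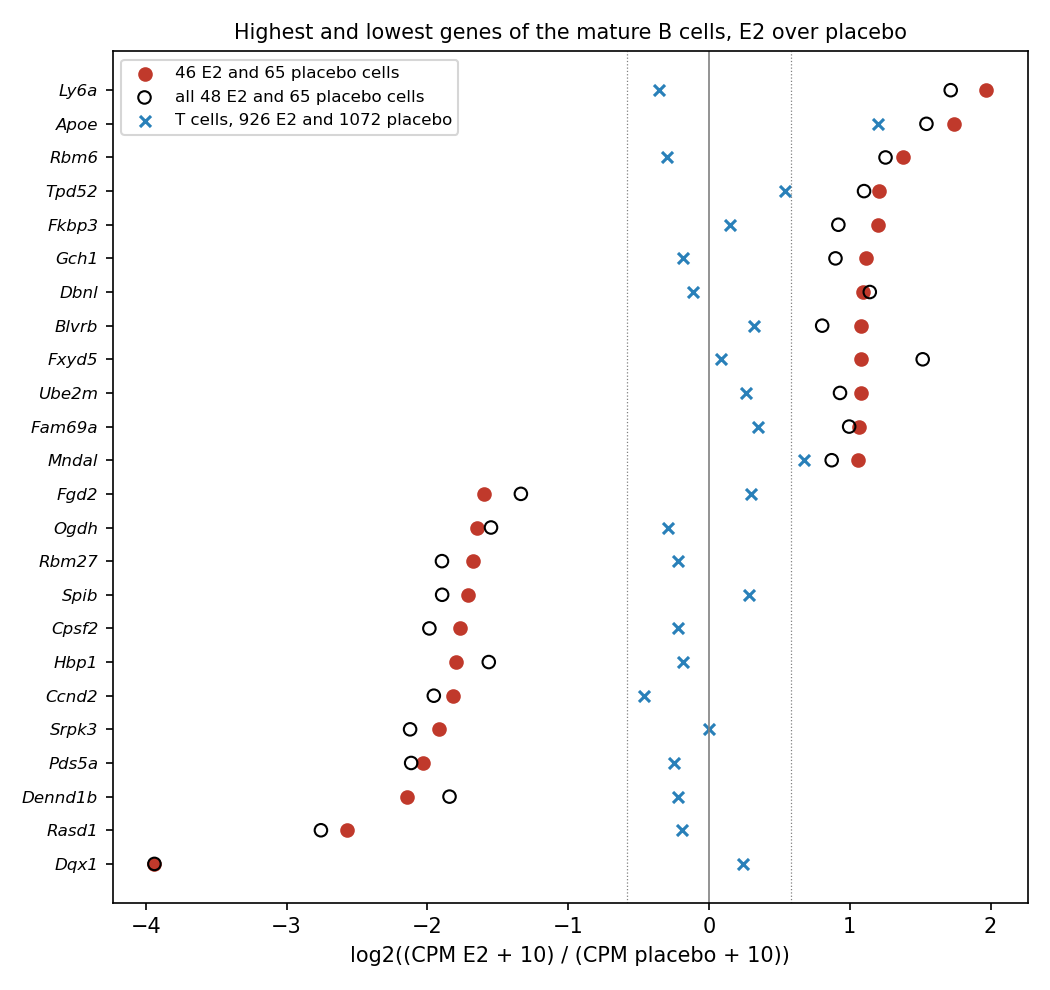
log2 ratio of (CPM + 10), E2 over placebo, of the 12 highest and 12 lowest genes without the pair of deep E2 barcodes (filled), over all 48 E2 cells (open) and in T cells (crosses); dotted lines mark 1.5-fold. Spib stood at -1.71 without the pair and at -1.89 over all cells, and Apoe, at 1.74, is also at 1.20 in T cells.

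Groups of genes were read against all 3073 genes with at least 20 UMIs, of which 39.1% were higher, 6.64% at least 1.5-fold higher and 18.3% at least 1.5-fold lower, with a median log2 ratio of -0.13. The antigen receptor and its coreceptors had 10 measured members, 3 higher and 7 lower, with a median of -0.27, and of -0.49 over all 48 cells. Ighm lay at 2955 CPM in E2 and 4404 CPM in placebo, 1.49-fold lower (1.33 to 1.67), and its log2 ratio was -0.57, against -0.78 over all 48 cells. Cells had 1 to 35 Ighm UMIs with a median of 9 in E2, and 2 to 43 with a median of 15 in placebo. Cd79b, the partner of CD79A, lay at 1224 and 1442 CPM (1.18-fold lower, 0.984 to 1.42), an interval that spans 1. Igkc was 1.20-fold higher (1.11 to 1.29), at 7902 CPM in E2 and 6611 CPM in placebo. Cr2, the complement receptor CD21, and Iglc1 passed 1.5-fold, with log2 ratios of -0.66 and -0.78.

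The signalling chain below the receptor had 18 measured members, 2 higher and 16 lower, with a median of -0.20, and of -0.43 over all 48 cells. Syk, the kinase that receives the receptor signal, lay at 638 CPM in E2 and 747 CPM in placebo (1.17-fold lower, 0.907 to 1.52). Blnk, its adaptor, lay at 202 and 287 CPM (1.42-fold lower, 0.913 to 2.25). Both intervals span 1, and 2 of the 18, Cd38 and Vav1, passed 1.5-fold, at log2 ratios of -0.83 and -0.98 with intervals that also span 1. Over all 48 cells 4 of the 18 were at least 1.5-fold lower, Blnk among them at -0.77, where 19.8% of all genes were. Inhibitors of the receptor had 11 members, 5 higher and 6 lower, and a median of -0.09, and of -0.19 over all 48 cells. Among them Cd72 was 1.86-fold lower (1.08 to 3.33) and Dok3 1.70-fold lower (1.04 to 2.84), while Fcgr2b, the inhibitory Fc receptor, had a log2 ratio of 0.42.

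Transcription factors of the B lineage had 19 measured members, 5 higher and 14 lower, with a median of -0.31, and of -0.47 over all 48 cells. Beside Spib, Bach2, the repressor that holds B cells back from becoming plasma cells, had 25 UMIs in 20 of 46 E2 cells and 88 in 40 of 65 placebo cells. It lay at 163 and 382 CPM, 2.35-fold lower (1.49 to 3.82), and its log2 ratio was -1.63 in cells with 0 Vpreb3 UMIs. Ikzf1, the zinc-finger factor Ikaros, was 1.92-fold lower (1.07 to 3.63) and Foxo1, a factor of B cell development and trafficking, 1.70-fold lower (1.09 to 2.71). These 4 of 19 were at least 1.5-fold lower, where 18.3% of all genes were, and 0 were at least 1.5-fold higher. Over all 48 cells 6 of 19 were at least 1.5-fold lower, where 19.8% of all genes were. Ebf1 lay at 1875 CPM in E2 and 2328 CPM in placebo (1.24-fold lower, 1.07 to 1.44), and Pax5 at 527 and 608 CPM (1.15-fold lower, 0.867 to 1.54).

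Genes of follicular B cells had 11 members, 5 higher and 6 lower, with a median of -0.22. Over all 48 cells 2 were higher and 9 lower, with a median of -0.43. Fcer2a lay at 319 CPM in E2 and 304 CPM in placebo, a ratio of 1.05 (0.713 to 1.53); its log2 ratio was 0.07, and -0.19 over all 48 cells. Il4ra, a chain of the interleukin 4 receptor, Icosl, the ligand of ICOS, and Cr2 were at least 1.5-fold lower. Homing receptors had 17 members, 6 higher and 11 lower, with a median of -0.31. At least 1.5-fold, 2 were higher and 3 lower, and over all 48 cells 3 and 7 of 19, where 7.35% and 19.8% of all genes were. Rgs2, which ends signals of G-protein-coupled receptors, lay at 137 CPM in E2 and 417 CPM in placebo (3.05-fold lower, 1.89 to 5.15). S1pr4, a receptor for sphingosine 1-phosphate, had a ratio of 2.03 (0.974 to 4.38) and S1pr1, which guides exit from lymphoid organs, was 1.51-fold lower (0.938 to 2.47), with a log2 ratio of -0.57, and -0.84 over all 48 cells. Cxcr4, the receptor for CXCL12, was 1.24-fold lower (1.02 to 1.52), and Ccr7, which leads cells into T zones, 1.17-fold lower (0.930 to 1.47).

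Immediate-early genes, induced within minutes of stimulation or of handling cells, had 19 members, 4 higher and 15 lower, with a median of -0.29. Junb, an AP-1 subunit, had 278 UMIs in E2 and 694 in placebo, at 1810 and 3014 CPM (1.67-fold lower, 1.45 to 1.92). Fos, its partner, had 40 and 106 UMIs (1.77-fold lower, 1.22 to 2.61), and Klf4, a factor that keeps B cells quiescent, 11 and 49 (2.97-fold lower, 1.52 to 6.34). Over all 48 cells Fos and Klf4 had log2 ratios of -0.08 and -0.35, and 2 of 20 members were at least 1.5-fold lower, where 19.8% of all 3306 genes were, against 5 of 19 without the pair. The list's median in T cells was 0.05. Genes of B cell activation had 15 members, 7 higher and 8 lower, with a median of -0.05, which was 0.07 over all 48 cells. Tnfaip3, the NF-kappaB inhibitor A20, was 2.67-fold lower (1.20 to 6.70), and Gpr183, a receptor for oxysterols that guides B cells in the follicle, had a ratio of 1.45 (0.999 to 2.10).

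MHC class II genes had 12 members, 8 higher and 4 lower, with a median of 0.20, and of 0.38 over all 48 cells. H2-Aa lay at 3879.5 CPM in E2 and 3066 CPM in placebo (1.27-fold higher, 1.13 to 1.41), H2-Ab1 at 3463 and 2754 CPM (1.26-fold, 1.12 to 1.41), and Cd74, the invariant chain, at 15355 and 13625 CPM (1.13-fold, 1.07 to 1.19). None of the 12 was 1.5-fold higher without the pair of deep barcodes; over all 48 cells 2 were, H2-Ab1 among them at a log2 ratio of 0.83, where 7.35% of all genes were. Ifi30, a thiol reductase of antigen processing, was 1.86-fold lower (1.40 to 2.50). In T cells, which make little class II, H2-Aa lay at 893 CPM in E2 and 318 CPM in placebo and the list's median was 0.97; the part of free RNA in the B cell values was not tested. MHC class I genes had 16 members, 8 higher and 8 lower, with a median of -0.01 and of 0.19 over all 48 cells. H2-Q7 was 1.76-fold higher (1.09 to 2.87) and Calr, the chaperone calreticulin, 2.18-fold lower (1.35 to 3.64); H2-Q genes are close copies whose reads may be split.

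Type I interferon response genes had 6 of 35 members measured, 5 higher and 1 lower, with a median of 0.32. With all 48 cells 8 were measured, 5 higher and 3 lower, with a median of 0.51. Ly6a, Ifi27l2a and Trim30a were at least 1.5-fold higher. Ifi27l2a, a membrane protein induced by interferon, had 88 UMIs in E2 and 80 in placebo, at 573 and 347 CPM (1.65-fold higher, 1.20 to 2.26). Trim30a, a negative regulator of NF-kappaB, had 20 and 19 UMIs (1.58-fold higher, 0.799 to 3.12). Over all 48 cells the log2 ratio of Ifi27l2a and of Trim30a was 0.51. The list's median in T cells was -0.37. Interferon gamma response genes had 10 members, 4 higher and 6 lower, with a median of -0.18, which was 0.32 over all 48 cells.

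Survival genes and the receptors of BAFF, the factor that keeps mature B cells alive, had 14 members, 4 higher and 10 lower, with a median of -0.22. Tnfrsf13c, the BAFF receptor, was 1.63-fold lower (0.949 to 2.90), and Tnfrsf13b, the receptor TACI, 1.73-fold lower (0.967 to 3.22). Bcl2, which blocks cell death, had 19 UMIs in E2 and 17 in placebo, a ratio of 1.67 (0.822 to 3.43). All 3 intervals span 1, and the log2 ratio of Bcl2 was 0.67, against 0.40 over all 48 cells. Bcl2 also belongs to a list of genes that E2 is known to raise in mouse B cells; among the others, Cd22 and Ptpn6 had log2 ratios of -0.18 and -0.32, and Vcam1 had 0 UMIs. Costimulatory genes had 8 members, 3 higher and 5 lower, with a median of -0.24, and of -0.44 over all 48 cells.

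Receptors for estrogen were not detected in mature B cells. Esr1, Esr2 and the membrane receptor Gper1 had 0 UMIs in E2 and in placebo cells. This allows a UMI in up to 7.40% of the 48 E2 cells and 5.52% of the 65 placebo cells. Esr1 had a UMI in 8 of 926 E2 T cells and 4 of 1072 placebo T cells, so a low level could not be seen at this depth. Coregulators of nuclear receptors had 8 measured members, 2 higher and 6 lower, with a median of -0.26. Nrip1, a corepressor of the estrogen receptor that estrogen induces in other cells, had 5 UMIs in 4 E2 cells and 21 in 18 placebo cells, 2.80-fold lower (1.03 to 9.51). Greb1 and Pgr, classical estrogen targets, had 0 UMIs.

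Oxidative phosphorylation had 29 members, 20 higher and 9 lower, with a median of 0.17, and 0.18 in T cells. Ndufb8, a subunit of complex I, passed 1.5-fold, with a ratio of 1.97 (1.04 to 3.79). Hypoxia and glycolysis genes had 10 members, 7 higher and 3 lower, with a median of 0.30, and -0.15 in T cells. Slc2a1, the glucose transporter GLUT1, had a ratio of 1.77 (0.729 to 4.37) and Pgam1, a glycolytic mutase, of 1.71 (0.783 to 3.79), with intervals that span 1. The log2 ratio of Slc2a1 was 0.71, and 0.45 over all 48 cells. Toll-like receptor genes had 5 members, 1 higher and 4 lower, with a median of -0.30. Of 30 proliferation genes 4 were measured, and Mki67 had 0 UMIs in the 46 E2 and 65 placebo cells. No germinal centre gene of 12 reached 20 UMIs, and Prdm1, the plasma cell factor, had 0 UMIs in E2 and 2 in placebo.

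**Figure D5:**
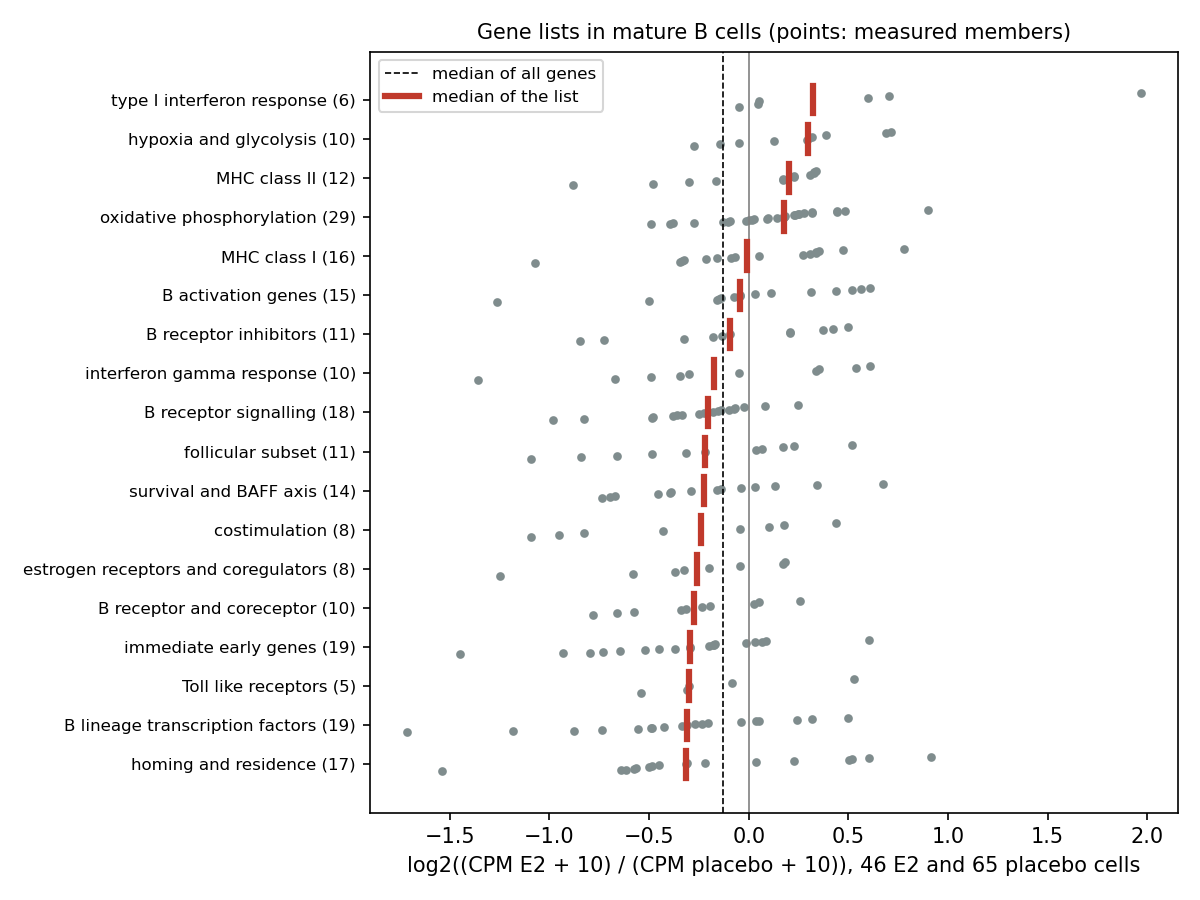
Points are the measured members (number in brackets) of the 18 gene lists with 5 or more of them, by their log2 ratio of (CPM + 10), E2 over placebo, in 46 E2 and 65 placebo mature B cells; red bars are list medians and the dashed line is the median of all genes, -0.13. Among these 18 the type I interferon list has the highest median, 0.32, with Ly6a far to the right, and the homing list and B lineage factors the lowest, both at -0.31.

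Markers of other cell types were summed over the 46 E2 and 65 placebo cells. The monocyte and macrophage list lay highest in E2, at 469 CPM against 126 CPM in placebo, and at 169 and 43.4 CPM without Apoe. Of 13 T cell markers 11 were at 0 in each library, with 38 UMIs in E2 and 67 in placebo, and a sum per cell between 0 and 6 in both. NK markers held 0 UMIs in E2 and 1 in placebo, with all 9 at 0 in E2 and 8 in placebo. Neutrophil markers held 6 and 1 UMIs, with 6 and 7 of 8 at 0, and Csf3r, Retnlg and Cxcr2 at 0 in both. The rule limits Csf3r, as it does Cd3e, Cd3d, Cd3g and Csf1r, so low counts of these genes follow from the choice of cells. Dendritic cell markers held 14 and 5 UMIs, with at most 3 and 2 in a cell and 7 and 9 of 10 at 0. Mast cell and basophil markers held 4 and 6 UMIs, and fibroblast, endothelial and keratin markers 21 and 45. Their part in the gene results was not tested.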

How the data were processed

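Live CD45+ cells from tumours were profiled with 10x Genomics Chromium 3′ libraries, 1 for E2 and 1 for placebo. The deposited values are raw, unnormalized UMI counts, which the authors made with Cell Ranger 3.1.0 on mm10, per the submitters' processing notes. No label states how barcodes were filtered. Each library listed 47730 features, of which 47224 matched GENCODE M21 (GRCm38) by gene ID; coordinates are 1-based. Barcodes under 200 genes were removed, 26 in E2 and 15 in placebo.

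UMIs were summed over mature B cells and scaled to CPM. Ratios carry exact conditional-binomial intervals, shares Clopper-Pearson intervals and levels Poisson intervals, at 95%. The ratio intervals were checked only on simulated Poisson counts, the model they assume. That check cannot cover UMIs clustered in single cells. Where a share of 0 is given an upper limit, it is the upper end of the exact interval. Doublets were not removed: Scrublet (scanpy 1.11.5) marked 1.49% of E2 and 0.0860% of placebo barcodes, and removal of the 266 and 97 highest scores, an alternative, took 0 mature B cells. Lists used genes with at least 20 UMIs, without the genes of the rule; 2 symbols with more than 1 feature were left out and 1 was not found. Named genes are the 12 highest and 12 lowest ratios among genes with at least 50 CPM and 30 UMIs, without ribosomal protein genes, receptor segments, gene models named Gm or Rik and genes of the rule, over all cells and again without the pair of deep barcodes, together with list members and immunoglobulin genes. The members, lists and alternatives were chosen with earlier results of these data known. The settings without the deep barcodes and with 0 Vpreb3 UMIs, alone or with other scaling, were chosen after seeing the data. Python 3.11.15, numpy 2.4.6, scipy 1.17.1, pandas 2.3.3 and matplotlib 3.10.9 were used.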

Additional observations from a re-analysis of the deposited data

How the results depend on the processing

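The lower share of mature B cells in E2, a ratio of 0.447 to placebo, stayed below 1 under the 8 alternatives run, at 0.414 to 0.530 in 7 of them. Thinning each barcode to 2000 UMIs before the rule gave 0.282, from 36 E2 and 74 placebo cells. Thinning lowers counts, so barcodes over the Vpreb3 limit can enter and members with 1 Ms4a1 UMI, 16 in E2 and 7 in placebo, can drop out. That setting therefore takes partly other cells, and how many was not counted. The counts of genes at least 1.5-fold higher and lower, 139 and 405 of 2273, moved by over 1.5 times under 5 settings. They were 78 and 237 of 2273 with a pseudocount of 50 CPM, and 2227 and 2497 of 11463 with no minimum of UMIs. With at least 60 UMIs they were 44 and 148 of 1035, and with cells thinned to 2000 UMIs 83 and 188 of 1151. In cells with 0 Vpreb3 UMIs and without the pair of deep barcodes they were 56 and 82 of 625. The number of genes counted thus differs between settings. Higher genes were 25.6% of the calls in the main setting and 47.1% with no minimum. Without the pair of deep E2 barcodes the log2 ratios of Nr4a2, Cst3 and Plbd1 were -1.17, -0.16 and -0.25, and with median of ratios scaling as well also -1.17, -0.16 and -0.25, instead of 1.67, 3.90 and 2.88. In cells with 0 Vpreb3 UMIs and without the pair, both choices together, that of Nr4a2 was -1.59 and that of Srpk3 0.10; the cause for Srpk3 was not tested. Without thinning, Ighd had a UMI in 91.7% of E2 and 98.5% of placebo cells, Fcer2a in 50% of E2 cells and Spib in 70.8% of placebo cells. Of 18 lists with 5 or more measured members, 11 had a median below 0 over all cells, and 10 to 14 under the alternatives. No paired analysis was possible because each group has 1 library and no replicate number, and no replicate could be left out for the same reason. With 46 to 65 cells a group, genes with few UMIs have wide counting intervals, and switched classes or estrogen receptors in a few percent of cells would go unseen.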

Other observations

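Antibody-secreting cells lay outside the mature B cells. Barcodes with 20 or more UMIs of Jchain, the chain that joins IgA and IgM into polymers, numbered 5 in the E2 library, or 0.0867% of its barcodes (exact interval 0.0282 to 0.202%), and 4 in placebo, or 0.115% (0.0312 to 0.293%). None had a UMI of Ms4a1, which plasma cells lose and which the rule requires, so none could count as a mature B cell. These barcodes held 10262 of the 10345 Igha UMIs of the E2 library, or 99.2%, and 15654 of 15791 in placebo, or 99.1%. Of them, 4 in E2 and 2 in placebo had 20 or more Igha UMIs. Their median of Igkc was 379 UMIs in E2 and 10522 in placebo. Mature B cells themselves had 0 Jchain UMIs in E2 and 1 in placebo.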
